A study of Mus musculus with 4 samples.

Results

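Plasmacytoid dendritic cells (pDC) were examined among immune cells sorted by flow cytometry from mouse mammary tumours and profiled by droplet 3′ single-cell RNA sequencing. A barcode was called a cell when it had 500 or more unique molecular identifiers (UMIs, each standing for 1 captured transcript) from 250 or more genes, with no more than 10% from mitochondrial genes. A called barcode was taken as a pDC when it carried 3 or more UMIs of Siglech, at most 2 of the T cell genes Cd3d, Cd3e and Cd3g together, none of the B cell gene Ms4a1 and at most 5 of the macrophage genes C1qa, C1qb and C1qc together. This rule found 54 pDC among 15319 called barcodes: 22 of 7444 in the PyMT library and 32 of 7875 in the Jagged1/PyMT library.

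All animals were FVB/NJ mice of 12 weeks with mammary tumours, and both groups carry PyMT, the polyoma middle T oncogene. The second group, labelled Jagged1/PyMT, is named for PyMT together with Jagged1, a cell-surface ligand of Notch receptors, and the labels do not say which promoter or cell type drives it. The labels list 2 samples of each genotype, but the deposited matrices pool both samples of a genotype with no map from barcodes to samples, so each genotype is 1 library. No test between the genotypes was therefore possible, and every interval below is an exact 95% interval for counting error only. Such an interval says nothing of the spread between mice. Intervals of summed UMIs also leave out the spread between cells.

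Plasmacytoid dendritic cells are rounded, secretory cells of the dendritic cell lineage that sense viral and self nucleic acids through the endosomal receptors TLR7 and TLR9 and can release large amounts of type I interferon. Their identity is held by the E protein TCF4 (E2-2), which acts against the Id proteins, together with IRF8, SPIB, BCL11A and RUNX2. In tumours they are often described as poor interferon producers that can favour tolerance.

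The pDC were deeper than most cells of the data. Their median was 8078 UMIs in the PyMT library (3844 to 16506) and 7650 in the Jagged1/PyMT library (2089 to 15352), against 3841 and 4200 over all called barcodes. Summed over the members, the pDC data held 184690 and 252846 UMIs. The median share of mitochondrial UMIs was 3.59% and 2.85%. Of all called barcodes, 70 had the same barcode sequence in both libraries, and none of these was a pDC.

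The label was checked against its defining markers. Siglech, the lectin gene used to select the cells, ranged from 6 to 49 UMIs per cell in the PyMT library and from 3 to 45 in the other. It is given only as a description. Bst2 (tetherin, the PDCA-1 antigen), Tcf4 and Irf8 were not used in the rule. All of them were detected together in 20 of 22 PyMT cells and in 32 of 32 Jagged1/PyMT cells. Scored over the 26 genes of the pDC identity list other than Siglech, the members had UMIs of a median of 21 genes in each library, and 51 of the 54 had at least 15. These genes are those of the label, with the exceptions described next.

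A group of 4 members stood apart, chosen after their values were seen, and each result that rests on them is also given without them (50 cells left, 20 and 30). The deepest PyMT cell (16506 UMIs, 21 identity genes) also held 117 UMIs of Fscn1, 61 of Ccl22 and 354 of Ccl5, genes of mature dendritic cells. A PyMT cell of 7086 UMIs had 10 identity genes, with 0 UMIs of Bst2 and of Ly6d. A Jagged1/PyMT cell of 10142 UMIs had 13 identity genes and 15 UMIs of Tcf4 but 1 UMI of Cd74 and 0 of H2-Aa. The deepest Jagged1/PyMT cell (15352 UMIs) had 8 identity genes and 3 UMIs of Siglech, with 830 UMIs of Cd74, 64 of Il1b, 89 of the histone gene Hist1h2ap and 15 of Top2a, a gene of dividing cells.

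Near the threshold of the rule, the members with the fewest Siglech UMIs had 6 and 8 in the PyMT library and 3 and 7 in the Jagged1/PyMT library. Barcodes just outside, with 1 or 2 Siglech UMIs, numbered 1 and 6. The PyMT one had 12 identity genes and 38 UMIs of Bst2, while those of the Jagged1/PyMT library had 0 to 9 identity genes.

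Markers of T cells, B cells, macrophages, neutrophils and NK cells were scarce in the pDC, while several markers of conventional dendritic cells were present. The T cell list summed to 4 UMIs over all PyMT members and 4 over all Jagged1/PyMT members, and its defining genes Cd3d, Cd3e, Trac, Trbc1, Trbc2 and Bcl11b were at 0 in both. The B cell list summed to 0 and 3 UMIs, the macrophage list to 4 and 26, the neutrophil list to 2 and 13, and the NK cell list to 6 and 0. The T cell, B cell and macrophage sums were limited in part by the rule itself. The list for type 1 conventional dendritic cells summed to 280 and 753 UMIs, of which Irf8 gave 205 and 654. Its genes Xcr1 and Tlr3 were at 0, while Clec9a had 2 and 4 UMIs. Cadm1 had 38 and 46 UMIs, Ppt1 20 and 28, Wdfy4 5 and 12, Naaa 4 and 8, Batf3 5 and 1 and Itgae 1 and 0. The type 2 list summed to 150 and 298 UMIs, with 3 or more in 17 of 22 and 29 of 32 cells, and its largest members were Cd209a (43 and 124 UMIs) and Clec10a (32 and 67 UMIs). The monocyte list summed to 268 and 389 UMIs, and it holds Ly6c2 and Ccr2, which pDC carry. The plasma cell list summed to 43 and 67, and the epithelial list to 14 and 31. The mature dendritic cell list summed to 363 and 115 UMIs, and 272 of the 363 came from 1 cell.

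Within the members, the identity genes varied from cell to cell. Per 10000 UMIs of a cell, Bst2 had a lowest, median and highest value of 0, 35.5 and 82.4 in the PyMT library and 5.86, 39.0 and 62.1 in the other. Ly6d, a surface protein of lymphoid progenitors and pDC, gave 0, 28.9 and 93.3 against 0, 38.2 and 155. The ranges of the libraries overlapped for both genes, with the highest Bst2 value in the PyMT library and the highest Ly6d value in the other.

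Klk1, a tissue kallikrein protease, varied widely from cell to cell. It gave 0, 8.44 and 51.6 UMIs per 10000 in the PyMT library and 0, 8.34 and 76.6 in the Jagged1/PyMT library, and it was without a UMI in 5 of 22 and 6 of 32 cells. Cox6a2, a cytochrome c oxidase subunit, was detected in 21 of 22 and 24 of 32 cells. The chemokine receptor gene Ccr9 and Ly6c2, which mark the mature peripheral pDC, were both present in 18 of 22 and 27 of 32 cells, and both absent in 2 cells of each library. Most members thus carried the pair of markers together.

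**Figure D1:**
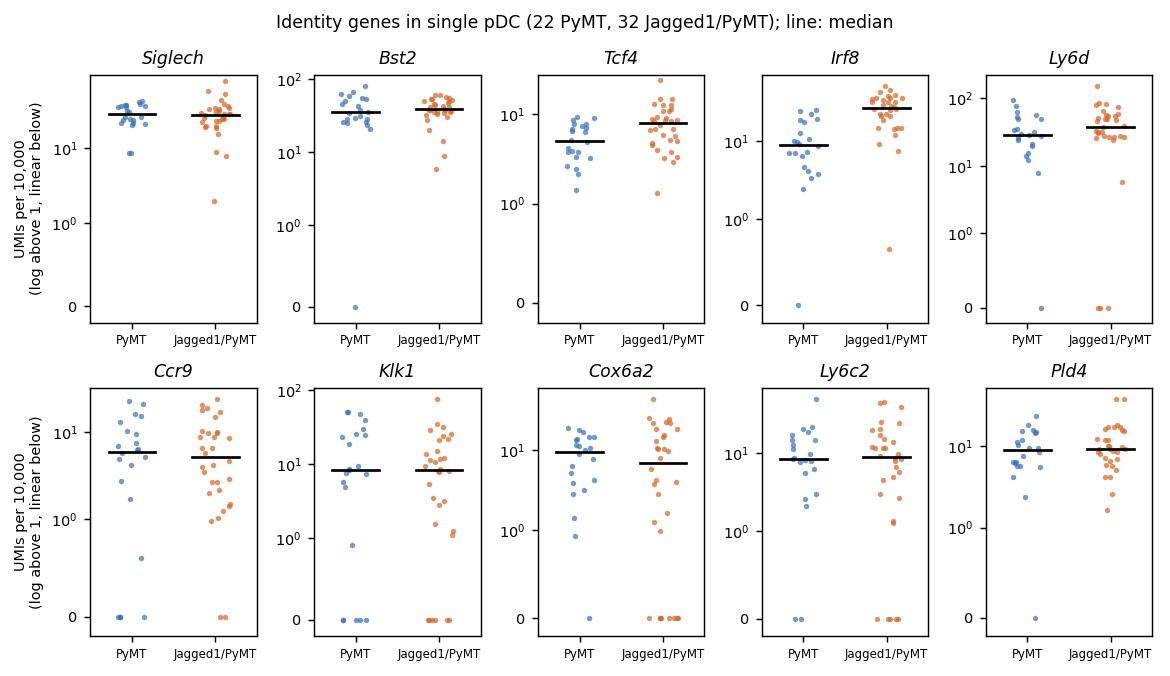
Each point is 1 pDC, with UMIs per 10000 UMIs of that cell on the vertical axis (logarithmic above 1, linear below), for 10 identity genes in the PyMT (22 cells) and Jagged1/PyMT (32 cells) libraries; the line is the median. The medians of the libraries lie close together for Siglech, Bst2, Ly6d, Klk1 and Pld4, while the Irf8 median is 9.002 in PyMT and 26.9 in Jagged1/PyMT.

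The pDC were next compared with all other called barcodes of the same library. This is a description of cells that were selected on 1 of their own marker genes, with no test. Levels are summed UMIs of the cells scaled to 1000000 UMIs of those cells (CPM). Of 2140 genes with 30 or more pDC UMIs over both libraries, 181 (8.46%) were over 4-fold higher in pDC in both libraries. Among the 24 identity genes measured, 23 were past 4-fold in both, and the exception, Cadm1, an adhesion molecule shared with type 1 conventional dendritic cells, was 25.6-fold and 3.54-fold higher.

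Klk1 reached 1565 CPM in PyMT pDC against 0.9996 in the rest, and 1032 against 0.876 in the Jagged1/PyMT library. Reads of the kallikrein genes may be shared between near-identical copies, so Klk1 and Klk1b27 (271 and 253 CPM in pDC) are uncertain as single genes. Cox6a2 stood at 823 against 0.706 CPM and at 937 against 1.22 CPM. Outside the pDC, these 2 genes summed to 34 and 24 UMIs over all other PyMT barcodes. Sh3bgr (190 and 158 CPM in pDC, 0.147 and 0.0761 elsewhere) and Cd300c, a paired activating receptor (119 and 138 CPM in pDC, 0.0882 and 0.133 elsewhere) had under 1 CPM outside the pDC.

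Several genes best known from other tissues belonged to the 25 genes that ranked highest over the rest. That ranking required UMIs in at least 25% of pDC of each library in place of the 30-UMI minimum, and Gm39091, Gm21762, Nrxn2 and Pnck are under that minimum. Lefty1, a secreted antagonist of Nodal signalling, was at 298 and 297 CPM in pDC and at 0.970 and 1.45 CPM elsewhere. Grm8, a metabotropic glutamate receptor, had 59.6 CPM in PyMT pDC and no UMI in the other PyMT barcodes. Against a floor of 3 UMIs over the group it was 675-fold higher (lower bound 462-fold). Cdh5, the cadherin of endothelial junctions, was 798-fold higher in the same library by the same floor (lower bound 561-fold), from 70.4 CPM. Its values in the Jagged1/PyMT library were 87.0 CPM in pDC and 0.286 CPM elsewhere. The endothelial marker list, which holds Cdh5, summed to 23 and 44 UMIs over the members, spread over 16 and 23 cells.

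Among the same 25 genes were 2 enzymes of metabolism. Upb1, the last enzyme of pyrimidine base breakdown, was at 287 and 229 CPM in pDC against 1.38 and 1.20 CPM elsewhere. Kmo, the kynurenine hydroxylase of tryptophan breakdown, was at 260 and 305 against 2.62 and 2.80 CPM. Dntt, the template-free polymerase of lymphocyte receptor rearrangement, was at 125 and 79.1 CPM against 0.470 and 0.286 CPM. Of 10 measured genes of the lymphoid list, 5 were past 4-fold in both libraries. Blnk (15.1-fold and 7.83-fold), an adaptor of B cell receptor signalling, and Iglc3 (15.6-fold and 15.4-fold), an immunoglobulin light chain constant gene, were among them. Ccr9, the receptor for the gut and thymus chemokine CCL25, was at 677 against 8.53 and at 649 against 4.99 CPM.

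**Figure D2:**
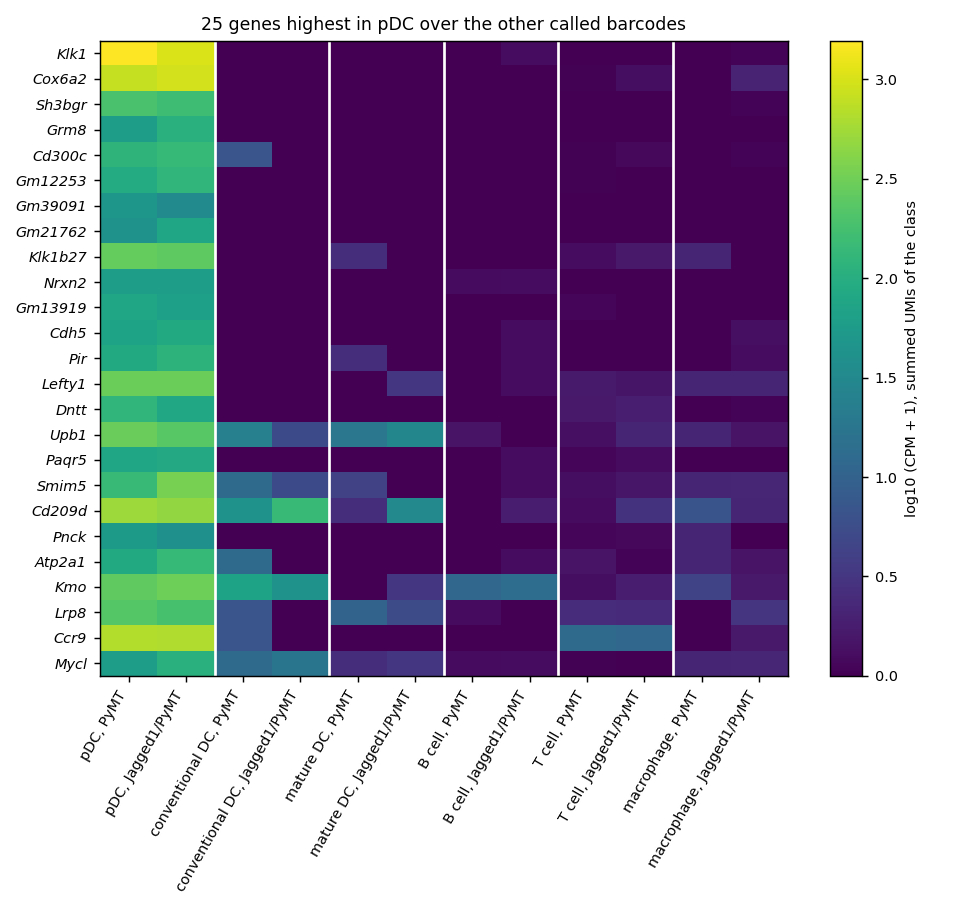
Rows are the 25 genes highest in pDC over the other called barcodes, columns are pDC and 5 marker-gated classes in each library, and colour is log10 of CPM plus 1. The pDC columns are bright in every row, and Ccr9 has its next values in the T cell columns while Kmo and Cd209d have theirs in dendritic cells.

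The promoters of Siglech, which selected the cells, and of 3 of the 25 highest genes are shown because each holds an E-box of the kind that E proteins such as TCF4 bind. Each stretch runs 5′ to 3′ on the gene's strand from 250 bases before the start of the transcript to 50 after it (RefSeq, GRCm38.p6). Capitals mark CAGGTG on either strand (CACCTG when read on the other) and the Runx core TGTGGT on either strand (ACCACA), and no marked matches overlap. Siglech lies at chr7:55767934-55768233 (+), Klk1 at chr7:44225110-44225409 (+), Cd300c at chr11:114960458-114960757 (−) and Ccr9 at chr9:123766961-123767260 (+).
Siglech: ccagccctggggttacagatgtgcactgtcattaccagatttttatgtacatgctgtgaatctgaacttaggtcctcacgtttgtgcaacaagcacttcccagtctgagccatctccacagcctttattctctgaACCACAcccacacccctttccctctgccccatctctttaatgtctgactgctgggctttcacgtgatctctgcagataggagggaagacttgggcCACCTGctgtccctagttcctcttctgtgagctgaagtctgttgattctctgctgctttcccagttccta
Klk1: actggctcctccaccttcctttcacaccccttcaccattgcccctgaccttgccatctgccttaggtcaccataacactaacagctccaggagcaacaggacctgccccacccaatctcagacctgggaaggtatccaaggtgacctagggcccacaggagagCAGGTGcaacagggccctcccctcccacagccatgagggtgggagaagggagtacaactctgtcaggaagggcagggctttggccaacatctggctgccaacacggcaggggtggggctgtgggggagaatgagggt
Cd300c: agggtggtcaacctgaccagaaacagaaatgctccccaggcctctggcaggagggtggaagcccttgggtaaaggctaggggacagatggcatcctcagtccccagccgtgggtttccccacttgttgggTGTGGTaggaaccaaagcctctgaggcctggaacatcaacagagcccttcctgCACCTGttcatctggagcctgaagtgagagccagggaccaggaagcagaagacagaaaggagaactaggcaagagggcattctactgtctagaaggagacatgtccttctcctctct
Ccr9: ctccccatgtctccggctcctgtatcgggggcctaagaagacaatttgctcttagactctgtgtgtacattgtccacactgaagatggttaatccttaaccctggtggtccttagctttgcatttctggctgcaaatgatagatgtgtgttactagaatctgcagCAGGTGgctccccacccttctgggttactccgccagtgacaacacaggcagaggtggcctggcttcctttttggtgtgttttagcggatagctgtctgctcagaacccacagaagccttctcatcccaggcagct

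CAGGTG was in 20.2% of the 32851 promoters of the table, in 16.2% of the 2157 promoters of genes tested in pDC and in 23.4% of the 192 promoters of genes over 4-fold higher in pDC, where 139 of the 181 genes had an entry. Among the 25 highest genes, 16 had an entry, with 20 promoters, and 10 of these held CAGGTG. The Runx core was in 16.8% of all promoters and in 12.7% of those of genes tested in pDC. It was in 17.2% of those of the over 4-fold genes and in 2 of the 20. These are letter matches and are not evidence of binding.

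The lists were read against the 8.46% of all genes past 4-fold. Among 19 transcription factors of dendritic cell fate that were measured, 7 were past 4-fold in both libraries, with Tcf4 18.5-fold and 22.8-fold, Spib 21.8-fold and 25.3-fold and Runx2 34.6-fold and 38.9-fold higher. Of 12 genes of endosomal nucleic acid sensing, 2 were past 4-fold in both. These were Tlr7, the receptor for single-stranded RNA (28.8-fold and 6.23-fold), and Pld4, an endolysosomal exonuclease (18.3-fold and 4.01-fold). Of 15 surface regulators, 9 were past 4-fold, with the inhibitory lectin gene Clec12a at 97.5-fold and 43.8-fold. Growth receptors gave 3 of 12, with Flt3, the receptor that drives dendritic cell development, at 27.1-fold and 30.9-fold. None of 14 antigen presentation genes was past 4-fold.

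Interferon itself was almost not seen. Of 26 interferon ligand and receptor genes, 5 had any UMI in pDC, and the only ligand among them was Ifnl2 with 1 UMI in 1 PyMT cell. The interferon-induced genes Ifit1, Ifit3, Rsad2 and Cxcl10 had 0 UMIs in both libraries. The floor of 3 UMIs stood at 16.2 and 11.9 CPM in pDC, and it is not an upper bound for these genes. Isg15 had 3 and 6 UMIs.

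The pDC were also set against other dendritic cells. Conventional dendritic cells (12 and 19 barcodes by marker gates) had 2770 and 2913 CPM of the lysozyme gene Lyz2, against 0 and 23.7 CPM in pDC. The interferon-inducible membrane gene Ifitm3 was at 981 and 1575 CPM in conventional dendritic cells and at 5.41 and 43.5 CPM in pDC. In the other direction, Atp1b1, a sodium pump subunit, was at 726 and 1056 CPM in pDC with no UMI in conventional dendritic cells.

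Mature dendritic cells (60 and 57 barcodes) held 543 and 412 CPM of Il12b, the p40 chain of IL-12, which had no UMI in pDC. Pacsin1, a membrane-bending protein, was at 498 and 546 CPM in pDC and at 1.59 and 2.19 CPM in mature dendritic cells. The protease gene Ctsl was at 1538 and 1570 CPM in pDC against 7.94 and 10.95 CPM. In B cells (1149 and 1099 barcodes), Ebf1, the factor that commits cells to the B lineage, was at 1292 and 1537 CPM, and it had no UMI in pDC. The 6 highest and 6 lowest genes against each class were chosen by 1 rule, and all of these values are descriptions without a test.

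The share of pDC among the called cells was 0.296% (0.185 to 0.447) in the PyMT library and 0.406% (0.278 to 0.573) in the Jagged1/PyMT library, a ratio of 1.37 (0.774 to 2.48). The sort gate and the mix of other cells set this denominator: T cells by marker gate numbered 4910 and 2653, and macrophages 149 and 1619. Over barcodes outside both of those gates the pDC share was 0.922% and 0.888%, a ratio of 0.963 (0.542 to 1.74). A difference in the abundance of pDC was not detectable at these counts.

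The genotypes were then compared within pDC. Of the 2140 genes, 78 (3.64%) were over 2-fold higher in the Jagged1/PyMT pDC and 83 (3.88%) were over 2-fold lower. The middle log2 value of all of them was 0.03. The pDC identity list had 2 of 24 genes over 2-fold higher (Irf8 and Smim5), none over 2-fold lower and a median of 0.13. The interval lay above 0 for 8 of the 24 genes and below 0 for 1, against 169 and 185 of the 2140 genes. Below, the 12 genes highest and the 12 lowest by the interval bound nearest 0 are named, with the lists of the pathways. Log2 ratios are Jagged1/PyMT over PyMT with the interval in brackets.

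**Figure D3:**
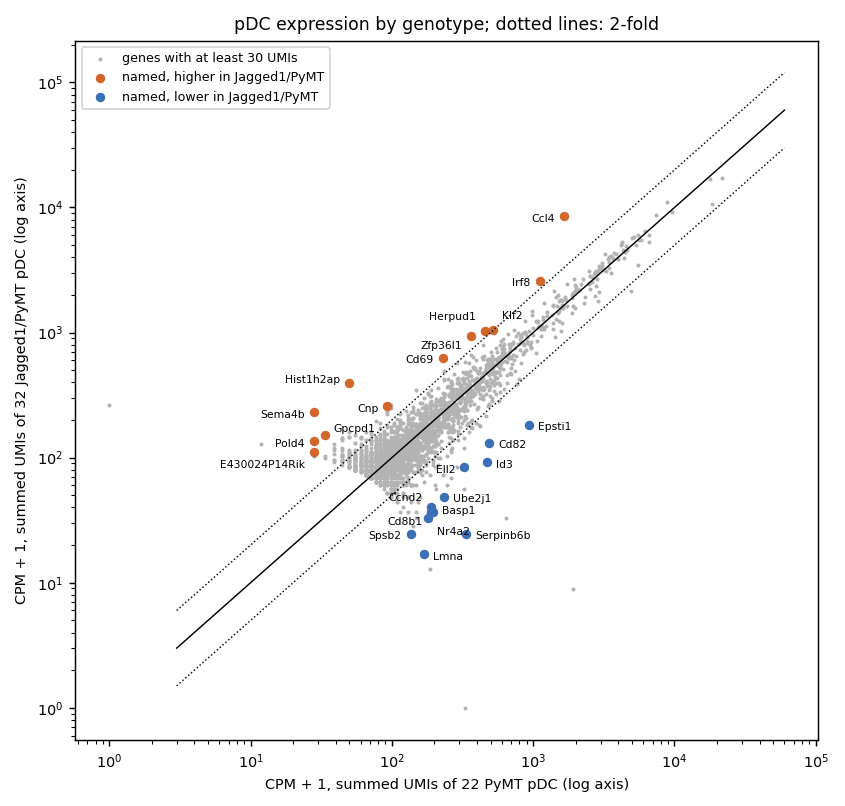
Each grey point is 1 of the 2140 genes with 30 or more UMIs in pDC, with CPM plus 1 of the PyMT library on the horizontal and of the Jagged1/PyMT library on the vertical axis (both logarithmic), and coloured points are the named genes. Most genes lie between the dotted 2-fold lines, and Ccl4 at 1641 and 8531 CPM lies above the line while Lmna at 168 and 15.8 CPM lies below it.

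Ccl4, the chemokine MIP-1β, ranked first by the interval bound nearest 0. Its UMIs per 10000 had a lowest, median and highest value of 0, 4.78 and 109 in the PyMT cells and of 0, 76.7 and 260 in the Jagged1/PyMT cells. The ranges overlapped, with both libraries holding cells at 0 but most Jagged1/PyMT cells above the PyMT median. Summed, Ccl4 was at 1641 CPM (303 UMIs, 16 of 22 cells) and 8531 CPM (2157 UMIs, 30 of 32 cells), a log2 ratio of 2.38 [2.20, 2.56]. Without the 4 cells that stood apart it was 2.36.

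The sibling chemokine gene Ccl3 (MIP-1α) had 2 and 32 UMIs in 2 and 4 cells, a log2 ratio of 3.55 [1.58, 6.65]. In barcodes under 100 UMIs, most of which hold no cell, Ccl4 was at 255 and 739 CPM, so RNA outside cells also differed in the same direction, at a lower level than in pDC. In the other classes the Ccl4 log2 ratio was 2.07 in T cells, 0.87 in conventional dendritic cells, 0.72 in B cells, 0.02 in macrophages and −1.50 in mature dendritic cells. The part of these in the pDC value was not tested. When every cell was thinned to 1000 UMIs, which left out no pDC, the share of pDC with a Ccl4 UMI was 45.5% and 84.4%, against 72.7% and 93.8% without thinning. In the T cell gate, whose median depth was 3960 and 3872 UMIs, the thinned share was 0.471% and 1.68%. In B cells it was 0.701% and 1.48%, and in macrophages 24.2% and 37.0%.

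Irf8, the transcription factor that sets both pDC and type 1 conventional dendritic cells, was higher as well. Its UMIs per 10000 ran 0, 9.002 and 25.5 in the PyMT library and 0.651, 26.9 and 52.2 in the Jagged1/PyMT library, so the Jagged1/PyMT median lay above the highest PyMT cell. The sums were 1110 CPM (205 UMIs) and 2587 CPM (654 UMIs), a log2 ratio of 1.22 [0.99, 1.45], and 1.22 without the 4 cells. The Irf8 ratio was 0.70 in T cells, 0.58 in conventional dendritic cells, 0.35 in B cells, 0.22 in macrophages and −0.18 in mature dendritic cells. At 1000 UMIs a cell, Irf8 was detected in 68.2% and 90.6% of pDC and in 0.839% and 1.22% of T cells. The thinned share was 20.0% and 26.4% in B cells and 20.3% and 24.1% in macrophages. Without thinning, 21 of 22 and 32 of 32 pDC had an Irf8 UMI.

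Other transcription factors differed in both directions. Of the 19 measured, 3 were over 2-fold higher (Irf8, Irf4 and Ikzf1) and 2 over 2-fold lower (Id3 and Nfil3), with a list median of 0.58 beside 0.03 for all genes. Ikzf1 (Ikaros, needed for pDC development) had 14 and 49 UMIs, a log2 ratio of 1.35 [0.47, 2.33]. Irf4 had 11 and 36 UMIs, 1.26 [0.25, 2.38]. Tcf4 stood at 547 and 755 CPM, 0.47 [0.11, 0.83], and its UMIs per 10000 ran 1.41, 5.02 and 9.26 in PyMT against 1.30, 8.01 and 23.9 in Jagged1/PyMT. Without the 4 cells the Tcf4 ratio was 0.36 with an interval that reached −0.01. Runx2 (0.78), Bcl11a (0.77) and Zeb2 (0.98) were higher but under 2-fold.

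Id3, an Id protein that blocks DNA binding by E proteins such as TCF4, was among the lowest genes. Its UMIs per 10000 ran 0, 2.39 and 44.9 in the PyMT library and 0, 0 and 10.2 in the Jagged1/PyMT library. It was detected in 14 of 22 and 10 of 32 cells, at 471 and 91.0 CPM, a log2 ratio of −2.37 [−3.10, −1.70] that was −2.41 without the 4 cells. After thinning, 22.7% and 6.25% of pDC had an Id3 UMI, beside 2.62% and 1.95% of T cells. The thinned share of Id3 was 9.46% and 4.70% in B cells and 3.91% and 2.73% in macrophages. Id2, which opposes pDC fate, was at 292 and 198 CPM, −0.56 [−1.15, 0.02]. Nfil3 was at 195 and 94.9 CPM, −1.04 [−1.85, −0.25], and came to −0.96, under 2-fold, without the 4 cells.

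**Figure D4:**
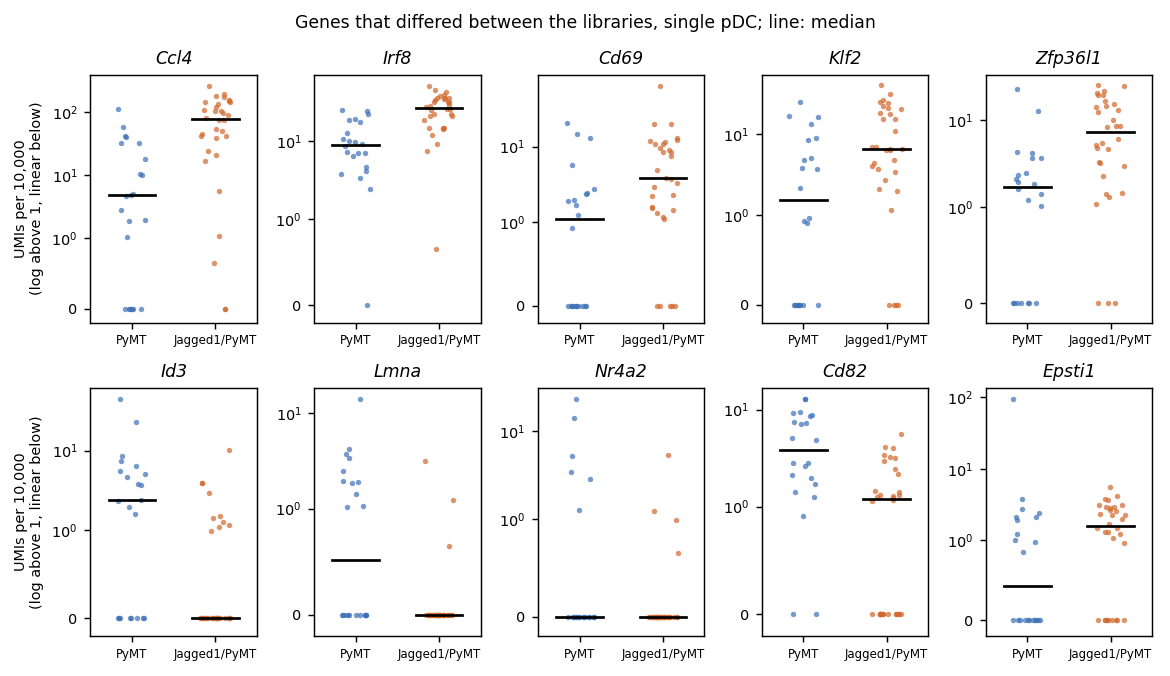
Each point is 1 pDC with UMIs per 10000 UMIs of the cell on the vertical axis (logarithmic above 1, linear below) for 10 genes that differed between the libraries; the line is the median. Ccl4, Irf8, Cd69, Klf2 and Zfp36l1 have higher medians in Jagged1/PyMT, Id3 and Cd82 have lower ones, and a single PyMT cell sets the sum of Epsti1.

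Among the remaining genes higher in Jagged1/PyMT, Cd69, an early activation receptor that retains cells in tissue, ran 0, 1.09 and 20.8 UMIs per 10000 in PyMT and 0, 3.83 and 64.4 in Jagged1/PyMT, with UMIs in 12 of 22 and 27 of 32 cells. Its log2 ratio was 1.47 [0.97, 1.99], and 0.81, under 2-fold, with cells thinned to 1000 UMIs. Zfp36l1, which promotes mRNA decay, ran 0, 1.73 and 23.1 against 0, 7.27 and 25.3, with a log2 ratio of 1.36 [0.96, 1.77]. Klf2, a factor of quiescence and trafficking, ran 0, 1.54 and 24.8 against 0, 6.59 and 39.8. Its ratio of 1.02 [0.68, 1.37] came to 0.97 without the 4 cells, just under 2-fold. The ranges of the libraries overlapped for each of these genes.

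Sema4b, a transmembrane semaphorin, had 5 UMIs in 3 of 22 PyMT cells and 58 UMIs in 22 of 32 Jagged1/PyMT cells, a log2 ratio of 3.08 [1.78, 4.76]. Herpud1, of the degradation of misfolded proteins at the endoplasmic reticulum, was at 455 and 1024 CPM, 1.17 [0.81, 1.54], and 0.62 after thinning. The low-count genes Gpcpd1 (6 and 38 UMIs), Pold4 (5 and 34), Cnp (17 and 65) and E430024P14Rik (5 and 28) were also on this side. Hist1h2ap, the remaining named gene, had 9 and 100 UMIs, but 89 of the 100 came from the deepest Jagged1/PyMT cell. Its log2 ratio of 3.02 was 0.16 [−1.34, 1.76] without the 4 cells.

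Genes lower in Jagged1/PyMT included Lmna, which encodes the nuclear lamins A and C. It had 31 UMIs in 11 of 22 cells and 4 UMIs in 3 of 32 cells, a log2 ratio of −3.41 [−5.37, −1.91]. After thinning, Lmna had 4 UMIs in 3 PyMT cells and 0 in Jagged1/PyMT cells. Its thinned value of −0.96 is therefore against the floor of 3 UMIs and is not a measured ratio. Lmna was also lower in every other class compared, with log2 ratios of −0.60 in mature dendritic cells, −0.62 in T cells, −1.20 in B cells, −1.40 in macrophages and −1.89 in conventional dendritic cells. Cd82, a tetraspanin, ran 0, 3.84 and 12.97 UMIs per 10000 in PyMT and 0, 1.20 and 5.59 in Jagged1/PyMT, with a ratio of −1.90 [−2.52, −1.31]. Ell2, a transcription elongation factor that favours secretory mRNA processing in plasma cells, had 60 and 21 UMIs (−1.97). Ube2j1, a ubiquitin-conjugating enzyme of the endoplasmic reticulum, had 43 and 12 UMIs (−2.29). Nr4a2, Basp1, Cd8b1, Ccnd2 and Spsb2 had log2 ratios between −2.51 and −2.26.

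Leaving out the 4 cells changed 3 of the 24 named genes beyond their interval. Serpinb6b had 62 and 6 UMIs, of which 57 came from the deepest PyMT cell, and its log2 ratio of −3.82 became −0.23. Epsti1 had 173 and 46 UMIs with 156 from the same cell, and its −2.36 turned to 0.94. Hist1h2ap was the third, as given above. Cd8b1 also moved by more than 1.5-fold, from −2.41 to −1.57, with 16 of its 35 PyMT UMIs in that cell, and Pold4 from 2.31 to 3.46.

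The nucleic acid sensing machinery differed little. Of 12 genes measured, none was over 2-fold higher, and the kinase gene Irak2 (25 and 15 UMIs, −1.19) was over 2-fold lower, with a list median of −0.06. Tlr7 was at 108 and 107 CPM, −0.02 [−0.91, 0.89]. Unc93b1, the chaperone that carries endosomal Toll-like receptors, was at 671 and 625 CPM, and Irf7, the master factor of interferon genes, at 276 and 225 CPM. Tlr9, the DNA receptor, had 8 and 6 UMIs and was too low to be measured. The wide interval of Tlr7 leaves room for nearly a 2-fold difference either way.

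Interferon receptors and response genes showed no gene past 2-fold. Ifnar1 was at 428 and 439 CPM and Ifnar2 at 504 and 605 CPM. Of 40 interferon response genes, 25 had any UMI and 7 reached 30 UMIs, with a list median of 0.14. The largest value below 0 was Ly6a (Sca-1) at 655 and 396 CPM, −0.73 [−1.13, −0.33].

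Surface regulators of pDC were near the background, with 0 of 15 past 2-fold and a median of 0.09. Tyrobp (DAP12), the adaptor through which Siglec-H signals, was at 5312 and 5011 CPM. Clec12a stood at 487 and 518 CPM, and Lair1, an inhibitory collagen receptor, at 466 and 502 CPM.

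Among traffic and adhesion genes, none of 12 was over 2-fold higher and 2 were over 2-fold lower, with a median of −0.23. Itga4, the α4 integrin chain, had 29 and 12 UMIs, −1.73 [−2.83, −0.71]. Ccr7, the lymph node homing receptor, had 20 UMIs in 6 cells and 12 UMIs in 1 cell, and 11 and 0 UMIs without the 4 cells, which held 9 and 12 of them. Ccr9 was level at 677 and 649 CPM, −0.06 [−0.41, 0.29]. Cd44, the hyaluronan receptor, was at 579 and 336 CPM (−0.79).

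The secretory pathway list had 1 of 28 genes over 2-fold higher (Herpud1) and 1 over 2-fold lower, the endoplasmic reticulum chaperone gene Dnajb9 (26 and 7 UMIs, −2.35), with a median of 0.02. Xbp1, the factor of the unfolded protein response that expands the secretory apparatus, was at 574 and 617 CPM. The chaperone gene Hsp90b1 was at 1083 and 1226 CPM.

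Antigen presentation genes gave 0 of 14 past 2-fold, a median of −0.11 and 5 genes whose interval lay below 0. The class II genes depended on 1 cell. H2-Aa was at 6595 and 5343 CPM, −0.30, and came to −0.64 without the 4 cells, since the deepest Jagged1/PyMT cell alone held 360 of its 1351 UMIs. H2-Ab1 moved likewise from −0.22 to −0.68 and Cd74, the invariant chain, from −0.08 to −0.33. The costimulatory gene Cd86 had 4 and 2 UMIs.

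Growth and survival receptors were the list with the lowest median among those of 10 or more measured genes. None of 12 was over 2-fold higher, 3 were over 2-fold lower and the median was −0.67, −0.68 without the 4 cells. Csf2rb2, a β chain of the IL-3 receptor, was at 325 and 142 CPM, −1.19 [−1.83, −0.57]. Its near-identical neighbour Csf2rb, the common chain for GM-CSF, IL-3 and IL-5, was at 406 and 253 CPM (−0.68), and counting between the pair is uncertain. Bcl2l11, the pro-apoptotic gene of BIM, had 86 and 54 UMIs (−1.12, and −0.90 without the 4 cells), and Tnfrsf13c, the BAFF receptor, 20 and 11 UMIs (−1.32, and −0.84). Flt3 was at 157 and 98.9 CPM, −0.67 [−1.50, 0.16]. In the other direction Il2rg, the common γ chain, gave 0.84 [0.24, 1.47].

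Tolerance genes were sparse. Of 20 listed genes 4 were measured, and Gzmb, Il10 and Tnfsf10 had 0 UMIs in both libraries. Tgfb1 was at 579 and 380 CPM (−0.61, and −0.33 without the 4 cells), and galectin-1 (Lgals1) at 980 and 1483 CPM (0.60, and 0.36). All 61 UMIs of Ccl22 came from 1 PyMT cell. In the chemokine list the 354 PyMT UMIs of Ccl5 were likewise from 1 cell, and 64 of the 67 Jagged1/PyMT UMIs of Il1b from another, so these are values of single cells. Of the 5 chemokine and cytokine genes measured, 3 were over 2-fold higher (Ccl4, Ccl3 and Il1b) and Ccl5 was over 2-fold lower.

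Notch pathway genes were scarce in pDC. Jag1, the gene named in the genotype, had 1 and 3 UMIs, or 5.41 CPM (0.137 to 30.2) and 11.9 CPM (2.45 to 34.7), a log2 ratio of 1.13 [−2.51, 6.85]. Notch1 had 3 and 4 UMIs, Notch2 6 and 6, and the target gene Hes1 none. Of 34 genes 3 were measured, and 1 of them, the protease gene Adam17, was over 2-fold higher with 17 and 59 UMIs, 1.34 [0.54, 2.21].

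Lymphoid genes of pDC showed 0 of 10 past 2-fold, with a median of 0.05. Blnk was at 948 and 799 CPM, Ighm at 417 and 411 CPM and Iglc3 at 292 and 316 CPM. In the list of transitional dendritic cells, which share features of pDC and conventional cells, Cd209a was over 2-fold higher (43 and 124 UMIs, in 10 of 22 and 22 of 32 cells, 1.07 [0.56, 1.61]). Cd209a has near-identical relatives, so its counts are uncertain. Lyz2 was detected in 0 of 22 and 5 of 32 cells. Cell division was seen in 1 member, with Mki67 and Top2a in the deepest Jagged1/PyMT cell only. The median of the 3 cell cycle genes measured was 0.76, and −0.18 without the 4 cells, and that cell held 78 UMIs of H2afz and 57 of Tuba1b.

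Genes that respond to tissue dissociation differed between the libraries in both directions. Of 25 measured, 3 were over 2-fold higher (Klf2, Klf6 and Cd69) and 4 over 2-fold lower (Nr4a2, Nr4a3, Gadd45b and Nfkbiz), with a median of 0.35, or 0.19 without the 4 cells. Without the 4 cells Gadd45b went from −1.95 to −0.72 and Nfkbiz from −1.01 to −2.08. Jun was at 439 and 799 CPM (0.87) and Fos at 363 and 664 CPM (0.87, and 0.45 without the 4 cells). Cd69, Klf2 and Nr4a2 are thus both named genes and members of this list. The part of cell handling in their values was not tested, and it cannot be told apart from genotype with 1 library each.

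**Figure D5:**
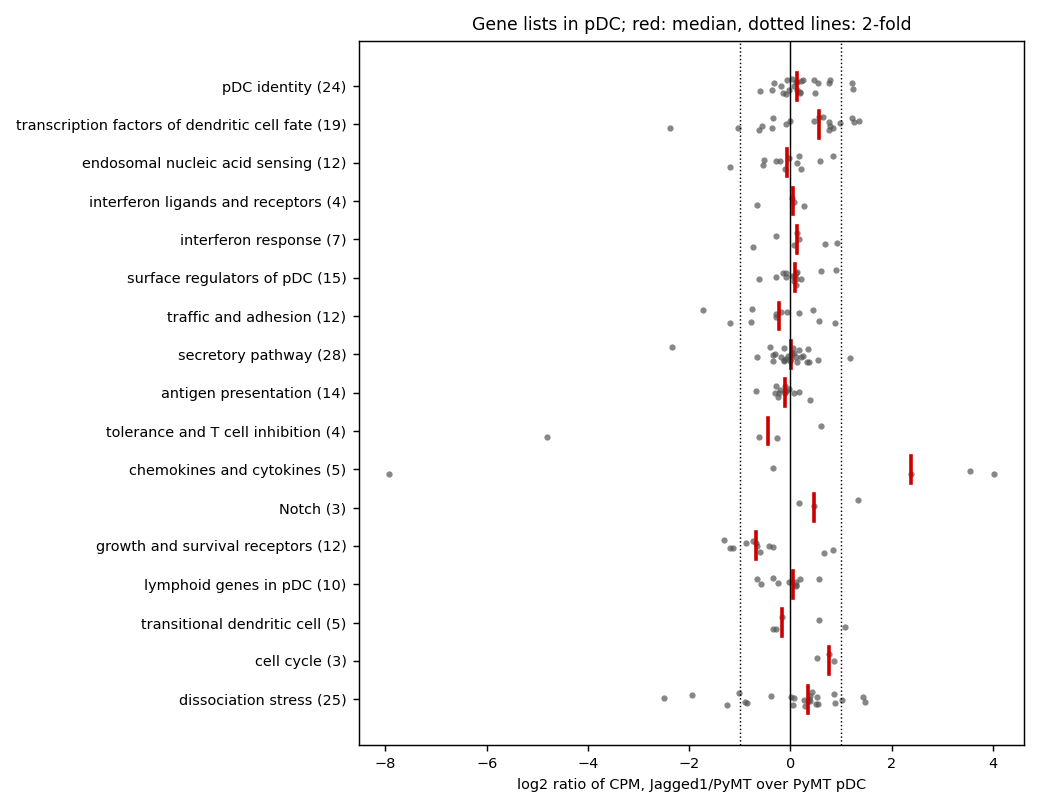
Each point is the log2 ratio of CPM (Jagged1/PyMT over PyMT pDC) of 1 measured gene in 17 lists, with the number measured in brackets, a red bar for the median and dotted lines at 2-fold; Ccl22 and Il1b, at 0 UMIs in 1 library, are drawn against a floor of 3 UMIs. The median lies at 2.38 for the 5 chemokines and cytokines, at 0.76 for the 3 cell cycle genes, at 0.58 for the transcription factors and at −0.67 for the growth and survival receptors.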

How the data were processed

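Gene-by-barcode UMI counts were used as deposited. Per the file headers, the authors made these raw counts by Cell Ranger, and the submitters' processing notes give version 3.0.2. Neither genome build nor annotation is stated there. The labels name a v3.1 kit with 8000 cells loaded, while each matrix lists 737280 barcodes and 31053 features, unfiltered. The libraries held 36012036 (PyMT) and 55506773 (Jagged1/PyMT) UMIs, and barcodes were filtered as stated in the report.

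UMIs were summed over members per library and scaled to CPM. Intervals are exact: Poisson for CPM, Clopper-Pearson for shares, conditional binomial for ratios. With 1 pooled library per genotype there was no test. For counts and lists, genes needed 30 UMIs over both libraries, without the genes of the rule and mitochondrial genes. A gene counted as differing past 2-fold between genotypes, or past 4-fold against the rest. Named genes were the 12 highest and 12 lowest by the interval bound nearest 0, detected in at least 5 cells of the higher library and at or above their level in barcodes under 100 UMIs, the 25 highest over the rest among genes found in at least 25% of pDC of each library (with no UMI minimum), 6 each way per class, and the lists' members. Other classes were marker gates: T cells by 3 or more Cd3 UMIs, macrophages by 10 or more C1q UMIs, B cells by 2 or more Cd79a UMIs, and dendritic cells by their marker genes. The members and the gene lists were chosen with earlier results of these data known. Scrublet, run through scanpy 1.11.5, called 3 and 0 barcodes on its own threshold, so it had not worked. The barcodes with its top 5.96% and 6.3% of scores, the expected doublet shares, held 1 and 0 pDC. These stayed in and were left out in an alternative. The functions were tested on simulated counts. Python 3.11.15, numpy 2.4.6, scipy 1.17.1 and pandas 2.3.3 were used.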

Additional observations from a re-analysis of the deposited data

How the results depend on the processing

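No paired analysis was possible because the samples of each genotype were deposited in 1 pooled matrix, and leaving out a replicate could not be run for the same reason. The alternatives that left out 3 members with under 15 identity genes or the 4 that stood apart, and the share outside the T cell and macrophage gates, were chosen after seeing the data. The pDC share ratio ranged from 0.963 to 1.48 over its alternatives, against 1.37. The number of genes over 2-fold higher and lower (78 and 83) depended on the count minimum: 503 and 382 of 4939 genes with 10 or more UMIs, 9 and 13 of 628 with 100 or more, and 11 and 3 of 251 after thinning members to 1000 UMIs. Under the other settings it stayed within 60 to 104 and 69 to 93. Of the 24 named genes, 20 had a value after thinning, and 10 of these moved beyond their interval and 1 changed sign. Cd69 (0.81), Herpud1 (0.62) and Epsti1 (−0.90) were then under 2-fold. Lmna (4 and 0 UMIs after thinning) and E430024P14Rik (0 and 5) had no UMI in 1 library. Their values of −0.96 and 0.20 are set by the floor of 3 UMIs and are not measured ratios, though both count among the 10. Some single log2 ratios changed sign. With Siglech at 5 or more UMIs, Hist1h2ap was −0.073, Tuba1b −0.15, H2afz −0.31 and Nfkbia −0.10. Without members holding UMIs of a second lineage, Tuba1b was −0.21, H2afz −0.27 and Nfkbia −0.072. After thinning, Hist1h2ap was −0.13, Plac8 −0.19, Dusp1 0.044 and Nfkbia −0.35. Il1b had 0 UMIs in PyMT pDC even before thinning. Its thinned value of −0.13 is against the floor of 3 UMIs and is no change of direction. Without the deepest member of each library, Hist1h2ap was −0.21, Epsti1 0.94, Tuba1b −0.10 and H2afz −0.22. With at least 15 identity genes, Tuba1b was −0.23, H2afz −0.52 and Nfkbia −0.68. Without the 4 members, Epsti1 was 0.94, Tuba1b −0.18, H2afz −0.44 and Nfkbia −0.54. The deepest Jagged1/PyMT cell held 89 of the 100 Hist1h2ap UMIs of its library, with 78 UMIs of H2afz and 57 of Tuba1b. The deepest PyMT cell held 156 of the 173 Epsti1 UMIs of its library. After thinning, Hist1h2ap rested on 3 and 4 UMIs. The cause of the sign changes was not tested. With 22 and 32 cells, genes under about 30 UMIs could not be compared.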

Other observations

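Some barcodes with 3 or more Siglech UMIs were kept out by the rule on other lineages. Such barcodes numbered 7 of 29 in the PyMT library, 5 of them for Cd3 genes and 2 for C1q genes. In the Jagged1/PyMT library they numbered 37 of 69, all 37 for C1q genes, with 9 also over the limit for Cd3 genes and 3 for Ms4a1. Of these barcodes, 3 and 4 held UMIs of 15 or more pDC identity genes, and 4 and 33 held fewer. These barcodes entered no pDC sum and none of the other marker-gated classes. They did count among all other called barcodes, against which the pDC were compared, and in the denominators of the pDC share. Their part in the values outside the pDC was not tested.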
